A study of Mus musculus with 6 samples.

Results

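Chemokines are small secreted proteins that direct leukocyte migration, and their receptors are G protein-coupled receptors that leukocytes, endothelium and stromal cells carry. The 65 rows described here are those of the gene table whose symbol follows the family's nomenclature (Ccl, Cxcl, Cx3cl1 and Xcl1 for ligands, Ccr, Cxcr, Cx3cr1 and Xcr1 for receptors, Ackr for atypical receptors), out of 29753 genes. They cover 61 different symbols and fall into 43 ligand, 18 receptor and 4 atypical receptor rows. RNA came from balb/c mouse lungs at 2 times, D0 and D14, after orthotopic implantation of the mouse osteosarcoma line K7M2, with 3 libraries for each day. Both days received the implant according to their labels, and no D14 lungs of mice without tumour cells are among the libraries, so an effect of the cells and of the elapsed time cannot be told apart. The sources used here do not give age, sex or whether a library is 1 mouse. The labels call the libraries biological replicates, while the RNA extraction text names bone marrow-derived macrophages. Alveolar epithelial markers, Sftpc the most abundant of them, summed to between 21430 and 47805 CPM (counts scaled to the library's total and TMM factor) in the 6 libraries, so the tissue label of lung was kept.

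Classical receptors couple to Gi proteins, and ligand binding leads through Gβγ, PI3Kγ and Rac to directed movement. Atypical receptors bind chemokines without G protein signalling and take the ligand up: Ackr3 scavenges Cxcl12, Ackr2 inflammatory CC chemokines, and Ackr4 the lymphoid chemokines Ccl19, Ccl21 and Ccl25. In the lung, Cxcl15 (lungkine) is made by epithelium, Cxcl12 by stroma and endothelium, and the Cxcr2 ligands Cxcl1, Cxcl2 and Cxcl5 attract neutrophils. In whole tissue, fewer cells of a type and less RNA per cell cannot be told apart.

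Total counts ran from 14878101 to 17385006 per library. Of the 65 rows, 51 passed the low count filter and were tested: 32 ligands, 16 receptors and 3 atypical receptors. The other 14 had at most 47 counts in any library (Ccl20), and the rest were Ccr8, Ackr1, Cxcl3, Xcl1, Ccr3, Cxcl11, Ccl27b, Ccl21c, Ccl21d, Ccl1 and repeated rows of Ccl27a and Ccl21b. In a library of this size, 3 counts correspond to 0.174 to 0.211 CPM, which is the limit a count of 0 allows, for counting error only. D0 replicate 3 was the least like the others: the correlation of log2 CPM over members was 0.832 to 0.915 (median 0.886) in the 5 pairs with this library and 0.913 to 0.957 (median 0.939) in the other 10 pairs. The values of members highest in it are given with it and, for those described, without it.

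The atypical receptor Ackr3 had the smallest p of all members for D14 against D0, and the next smallest adjusted p was 0.390. Ackr3 stood at 43.4, 48.7 and 40.0 CPM in D0 replicates 1, 2 and 3 and at 101, 96.9 and 85.4 CPM in the D14 replicates. All 3 D14 libraries lay above all 3 D0 libraries, with no overlap. The mean was 44.0 ± 4.36 CPM at D0 and 94.3 ± 7.98 CPM at D14 (SD, n = 3 each), a 2.14-fold difference (log2 fold change 1.10, SE 0.15). The edgeR quasi-likelihood test gave a Benjamini-Hochberg adjusted p of 0.0843, so Ackr3 missed the threshold of 0.05, as its p ranked 19 among 17686 tested genes. Under DESeq2 the log2 fold change was 1.12 with an adjusted p of 8.31e-07, where 1.24% of all genes were called (0.733% as higher). Without the low count filter edgeR gave an adjusted p of 0.0475, where 0.0874% of all genes were called (0.0739% as higher). Over the edgeR fits that left out 1 library each, the log2 fold change was 1.04 to 1.18 and the adjusted p 0.07 to 0.397. The gene lies at chr1:90203980-90216751 on the plus strand of GRCm38, and no other gene of the annotation overlaps it.

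The promoter of Ackr3 is shown because this receptor had the smallest p of the family. It was taken from RefSeq (GRCm38.p6), the 250 bases before the annotated start, read 5′ to 3′, at chr1:90203730-90203979 on the plus strand.
Ackr3: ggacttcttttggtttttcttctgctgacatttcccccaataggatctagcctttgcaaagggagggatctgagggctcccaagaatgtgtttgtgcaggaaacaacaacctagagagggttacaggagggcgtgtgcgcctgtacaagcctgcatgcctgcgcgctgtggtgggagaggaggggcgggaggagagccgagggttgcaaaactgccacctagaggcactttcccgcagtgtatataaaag
Searched on both strands, it holds no match to a κB motif (GGGA, any 2 bases, TTCC) or to an interferon-stimulated response element (TTTC, any 2 bases, TTTC), so no letters are in capitals. The absence of these letters says nothing of other sites.

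Ackr3 is known from endothelium, and endothelial markers were also at higher levels in the D14 libraries, none past the threshold. The 10 blood endothelial markers summed to 4893, 3402 and 2500 CPM in the D0 libraries and to 5384, 5414 and 5571 CPM in those of D14. All 10 of these markers had a positive log2 fold change (median 0.61), with Cdh5 at 1.57-fold and Pecam1 at 1.65-fold. None was called, against 0.0339% of all genes. At an unadjusted edgeR p under 0.05, 3 of the 10 were higher and 0 lower, against 5.48% and 7.09% of all genes. Ranges did not overlap for 4 that were higher and 0 that were lower, against 10.9% and 10.7% of all genes. The 6 lymphatic endothelial markers summed to 212, 196 and 89.4 CPM at D0 and to 377, 413 and 455 CPM at D14, all 6 with a positive log2 fold change (median 0.57). None of the 6 lymphatic markers was called, and the ranges of the sums did not overlap. At an unadjusted edgeR p under 0.05, 1 of the 6 was higher and 0 lower. Single-marker ranges did not overlap for 3 that were higher and 0 that were lower. D0 replicate 1 had a blood endothelial sum of 4893 CPM, and an Ackr3 level of 43.4 CPM. The part of these markers in the Ackr3 value was not tested.

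Cxcl12, the ligand that Ackr3 and Cxcr4 share, stood at 396, 225 and 145 CPM at D0 and at 298, 269 and 286 CPM at D14. The D14 libraries lay within the D0 range, and the log2 fold change was 0.16 (SE 0.33). Leaving out D0 replicate 3 gave -0.12 and leaving out D0 replicate 1 gave 0.63, so its direction rested on single libraries. Cxcr4, the signalling receptor, stood at 63.3, 63.6 and 39.3 CPM at D0 and at 49.5, 48.2 and 51.1 CPM at D14. Its log2 fold change was -0.16 (SE 0.20) with an edgeR adjusted p of 0.737. Among the 3 genes of the Cxcl12 axis, Ackr3 alone had D0 and D14 ranges that did not overlap, and the difference between the genes' changes was not tested.

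**Figure D1:**
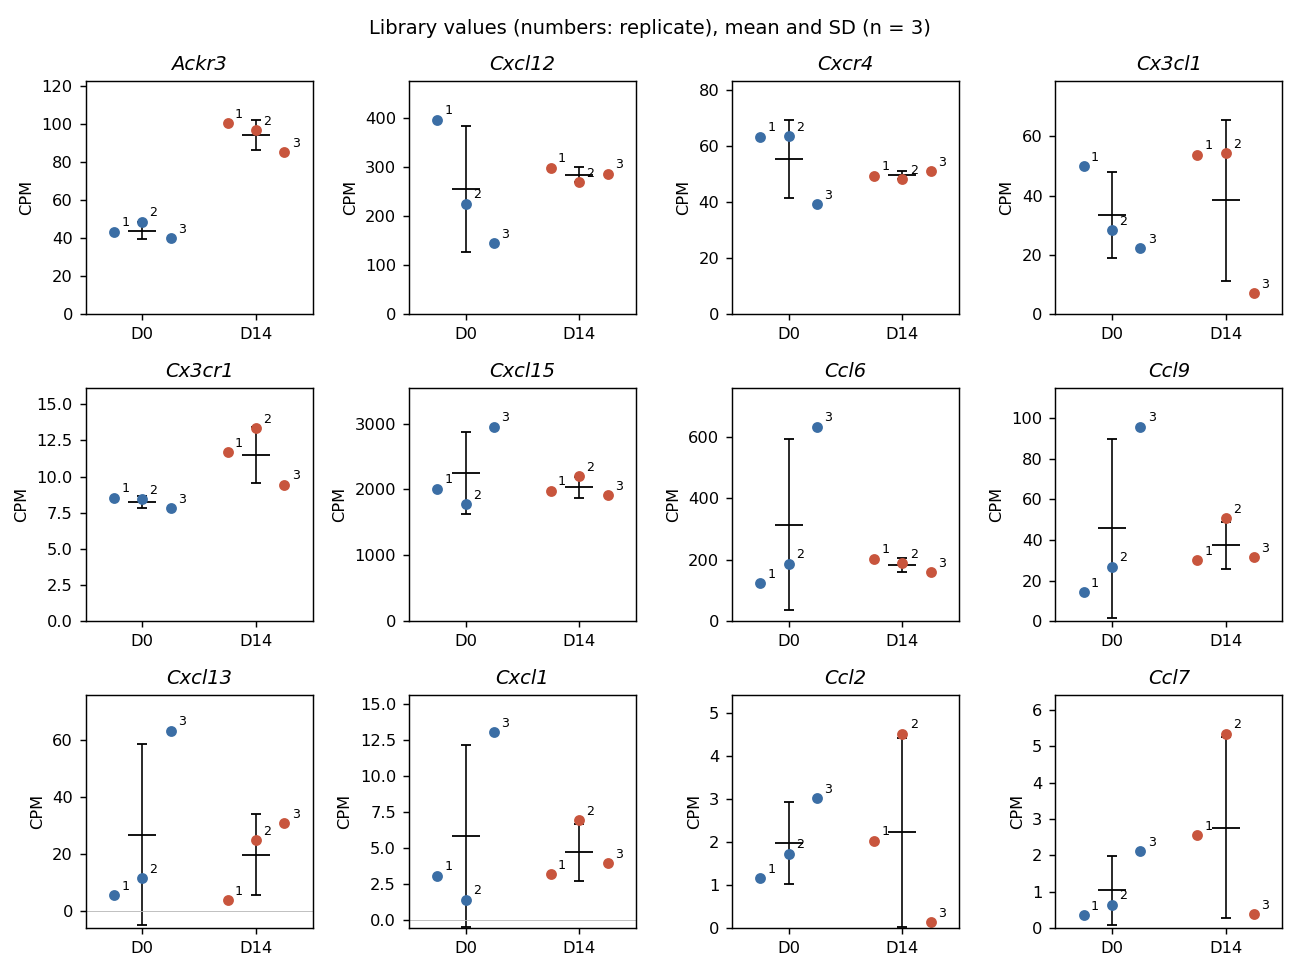
CPM (y axes, linear) of 12 chemokine and receptor genes in each library of D0 (blue) and D14 (red). Points carry the replicate number, and bars are the mean and SD of 3 libraries. Ackr3 has separate ranges on the 2 days, 40.0 to 48.7 CPM against 85.4 to 101 CPM, while D0 replicate 3 is the high point for Ccl6, Ccl9, Cxcl13 and Cxcl1.

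Of the other atypical receptors, Ackr2 stood at 18.0, 8.56 and 6.46 CPM at D0 and at 12.9, 13.9 and 19.9 CPM at D14. The ranges overlapped, with D0 replicate 1 among the high libraries (log2 fold change 0.50, SE 0.39). Ackr4 stood at 22.1, 15.8 and 11.6 CPM at D0 and at 15.9, 13.4 and 15.1 CPM at D14. The D14 libraries were within the D0 range (log2 fold change -0.16, SE 0.25). Ackr1, which erythrocytes and venules carry, failed the filter with 3 to 17 counts a library. The median log2 fold change of the 3 tested atypical receptors was 0.50, the value of Ackr2, and over all genes tested it was -0.03.

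Over the whole family, 0 of 51 members passed the adjusted threshold, against 0.0339% of all tested genes (0.017% as higher and 0.017% as lower). At an unadjusted p under 0.05, 2 members were higher at D14 (Ackr3 and Cx3cr1) and 0 lower, while of all genes 5.48% were higher and 7.09% lower. The D0 and D14 ranges did not overlap for 2 members that were higher (the same pair) and 2 that were lower (Ccl21b and Ccl27a), against 10.9% and 10.7% of all genes. The log2 fold change was positive for 18 members and negative for 33, while 46.9% of all genes had a positive value. The median SE of the log2 fold change was 0.46 for members and 0.24 for all genes. The median level of the members was 4.99 CPM, and their SE was not compared with that of genes of like level.

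**Figure D2:**
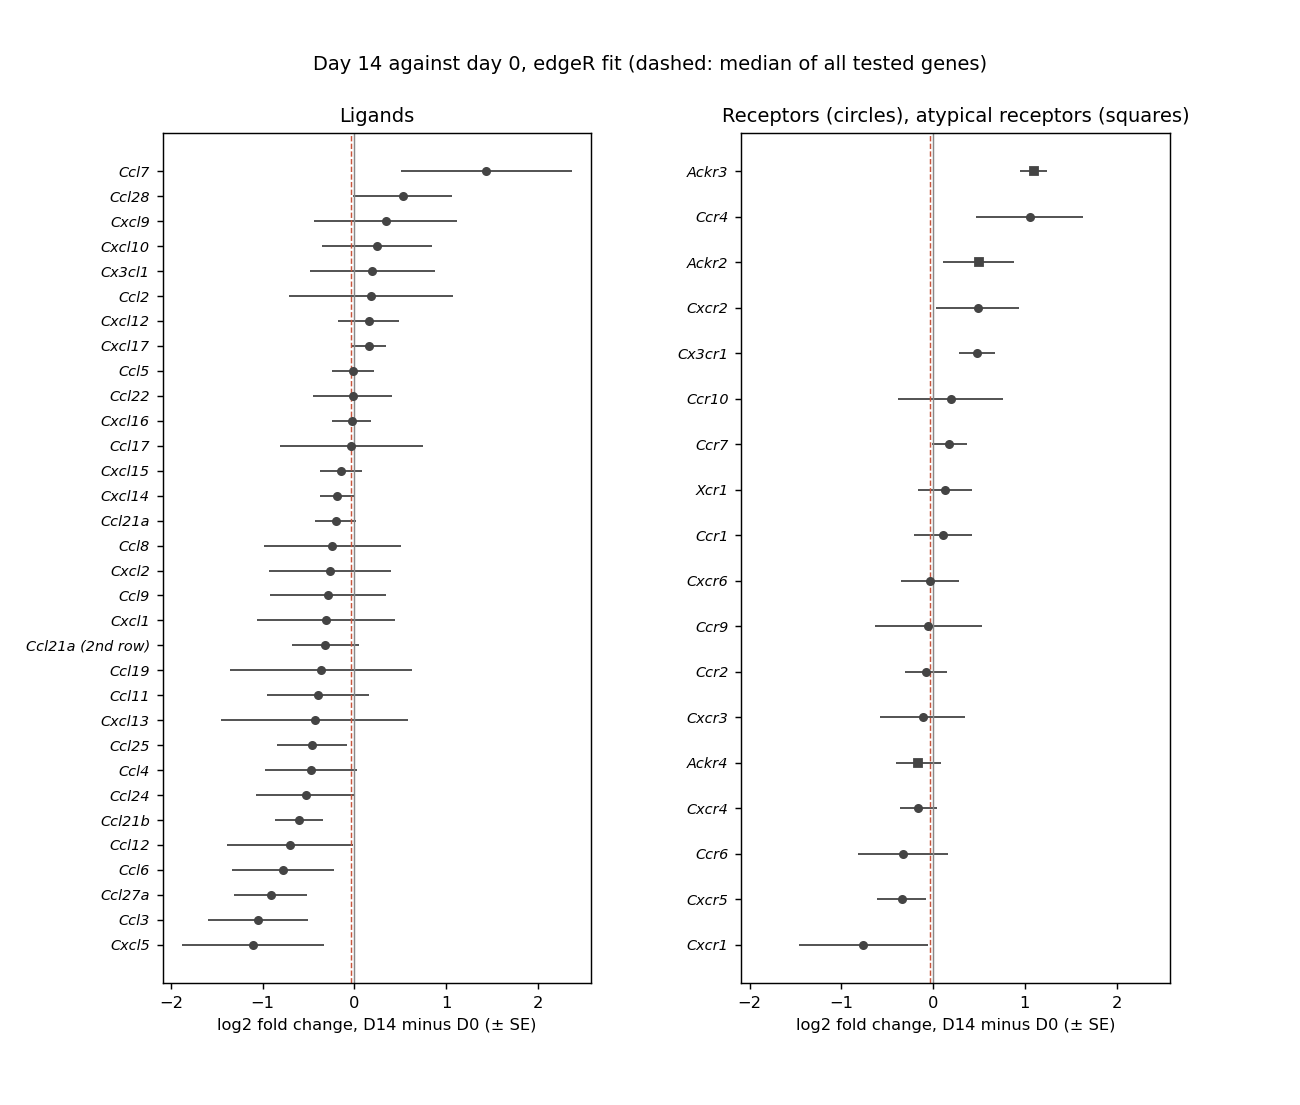
Log2 fold change, D14 minus D0 (x axis), with its SE from the edgeR fit for the tested members that are reported, ligands at left and receptors and atypical receptors at right. The dashed line is the median of all tested genes, -0.03. Ackr3 at 1.10 has a short bar, while Ccl7 at 1.44 has a bar of 0.93.

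The ligands as a class centred slightly under the other genes, and that centre moved when single libraries were left out. Of 32 tested ligands 8 had a positive and 24 a negative log2 fold change, with a median of -0.25, and 0 had an unadjusted p under 0.05. Without D0 replicate 3 the median of the ligands was 0.16, and without D14 replicate 2 it was -0.53. In D0 replicate 3, 17 of 32 ligands (53.1%) were at 2 times or more the median of the other 5 libraries, and 6.93% of all genes were. In the same library 6 of 19 receptors (31.6%) were lower by 2 times or more, and 8.34% of all genes were. In D14 replicate 3, 9 ligands (28.1%) were lower by 2 times or more, while 4.01% of all genes were. Among them, Ccl2, Ccl7, Ccl8 and Ccl12 had 2, 6, 8 and 2 counts in that library, and Cx3cl1 had 110. D0 replicate 1 was lower by 2 times or more for 10 ligands (31.2%), while 3.96% of all genes were. Among these, Cxcl9, Ccl7, Cxcl2 and Ccl8 had 4, 6, 6 and 8 counts there, and Ccl9 had 245. The median level of the ligands was 3.75 CPM, and the shares of ligands were not compared with those of genes of like level.

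**Figure D3:**
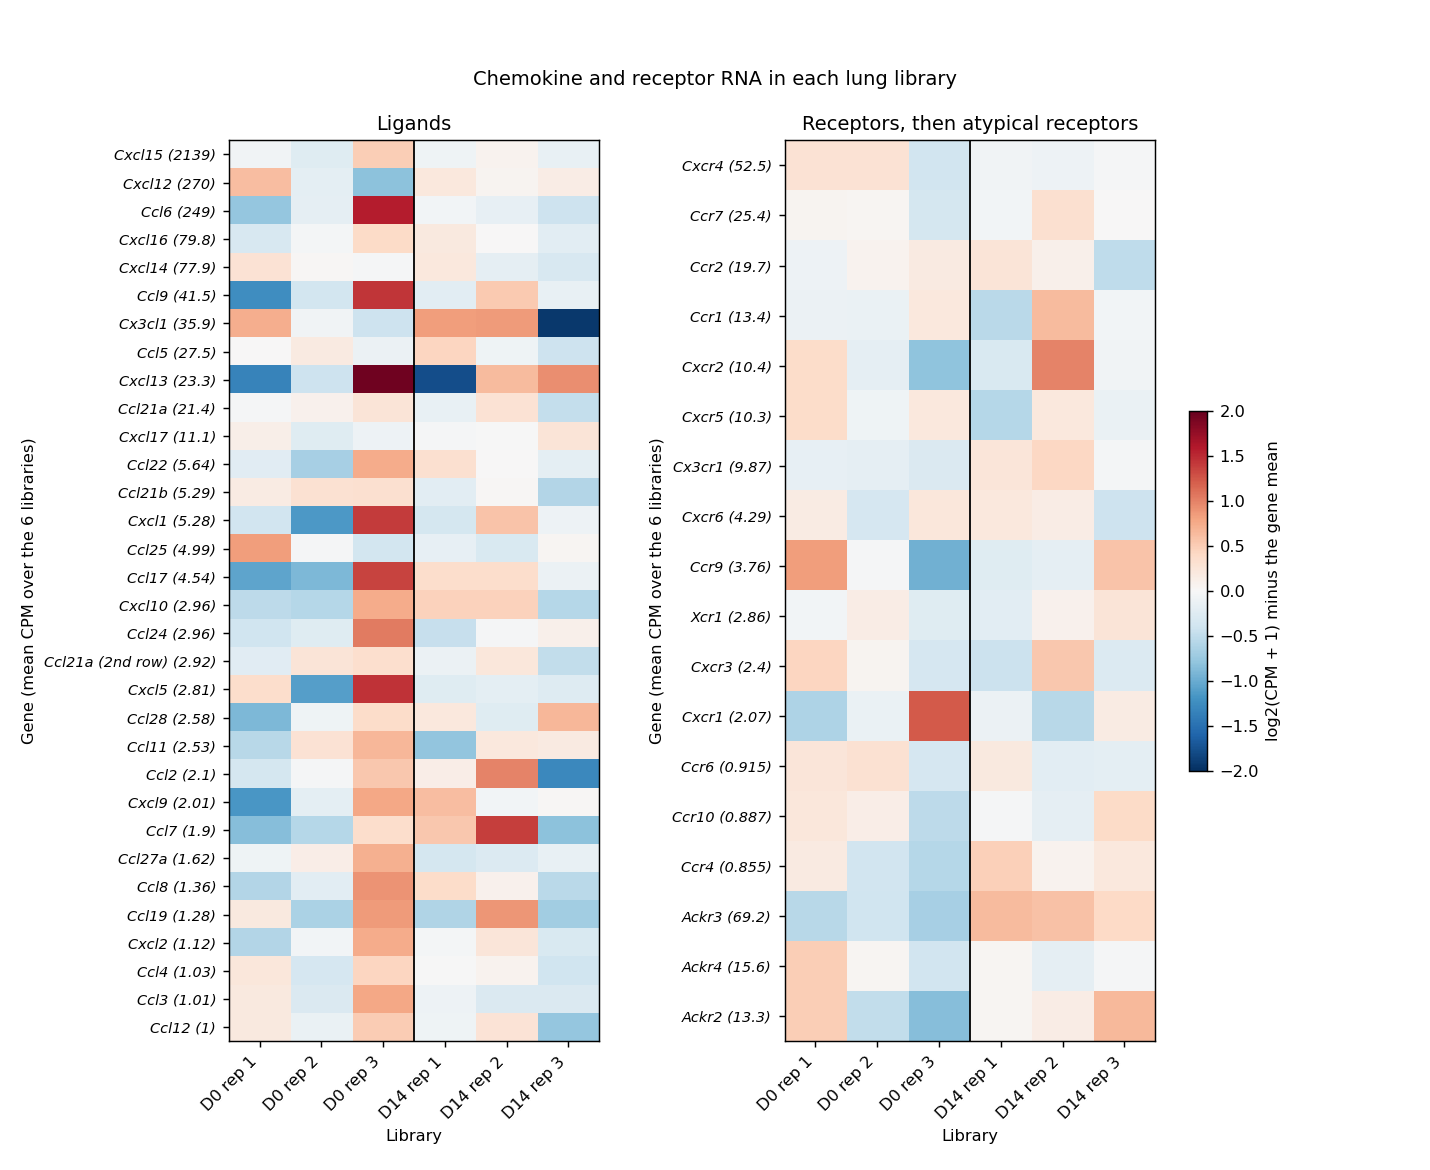
Log2(CPM + 1) of each reported, tested member in each library minus the gene's mean (colour, red above and blue below the mean), with ligands at left and receptors followed by atypical receptors at right. Rows are ordered by mean CPM, given in parentheses, and the black line parts D0 from D14. D0 replicate 3 is red for most ligands, 17 of 32 at 2 times or more the other libraries' median.

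Promoters of the neighbouring neutrophil-attracting ligands Cxcl1, Cxcl2 and Cxcl3, and of Cxcl10 in another cluster, are shown because they hold κB letters, and Cxcl1, Cxcl2 and Cxcl10 were all highest in D0 replicate 3. RefSeq (GRCm38.p6) promoters were matched for 46 of the member symbols, 53 promoters in all, and each run is the 250 bases before the start, 5′ to 3′. Capitals mark matches to the κB motif on either strand and, in Cxcl10, also a match to the interferon-stimulated response element on the strand opposite to the one shown. Cxcl1 is at chr5:90890995-90891244, Cxcl2 at chr5:90903649-90903898 and Cxcl3 at chr5:90785851-90786100, all on the plus strand, and Cxcl10 is at chr5:92348890-92349139 on the minus strand.
Cxcl1: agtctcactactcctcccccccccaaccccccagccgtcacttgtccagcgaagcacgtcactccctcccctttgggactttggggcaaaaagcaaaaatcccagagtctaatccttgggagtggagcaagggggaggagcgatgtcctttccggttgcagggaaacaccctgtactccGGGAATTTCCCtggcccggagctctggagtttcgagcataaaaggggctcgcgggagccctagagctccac
Cxcl2: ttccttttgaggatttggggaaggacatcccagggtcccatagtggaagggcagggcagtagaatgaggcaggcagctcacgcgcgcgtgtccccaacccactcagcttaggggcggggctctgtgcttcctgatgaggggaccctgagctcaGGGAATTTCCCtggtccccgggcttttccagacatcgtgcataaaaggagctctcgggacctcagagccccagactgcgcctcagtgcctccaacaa
Cxcl3: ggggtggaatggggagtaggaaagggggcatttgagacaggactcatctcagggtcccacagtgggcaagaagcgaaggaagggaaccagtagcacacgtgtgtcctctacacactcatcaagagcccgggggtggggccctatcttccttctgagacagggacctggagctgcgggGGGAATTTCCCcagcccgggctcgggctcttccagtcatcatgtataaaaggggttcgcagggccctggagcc
Cxcl10: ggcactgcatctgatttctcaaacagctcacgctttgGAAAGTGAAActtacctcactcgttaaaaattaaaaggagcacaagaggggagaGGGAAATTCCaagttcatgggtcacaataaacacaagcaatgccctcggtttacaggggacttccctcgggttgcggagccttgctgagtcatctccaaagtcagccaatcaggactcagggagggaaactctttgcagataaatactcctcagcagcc
In Cxcl1, Cxcl2 and Cxcl3 the capitals are a pair of overlapping κB matches, 1 on each strand. Of the 53 member promoters, 6 (11.3%) hold the κB letters, those of Ccl1, Ccr3, Cxcl1, Cxcl2, Cxcl3 and Cxcl10, and 1.21% of all 32851 promoters do. The letters of the interferon-stimulated response element are in 3 member promoters (5.66%), those of Ccl19, Cxcl10 and Cxcl14, and in 2.98% of all. Of the 17 ligands at 2 times or more in D0 replicate 3, 14 had a promoter in the table, and 3 of these hold κB letters (Cxcl1, Cxcl2 and Cxcl10). Of the other 15 tested ligands, 8 had a promoter in the table and 0 hold them. Those without a promoter include Ccl2, Ccl5, Ccl11 and Cxcl16, so the 0 does not cover them. The groups were formed from the values of D0 replicate 3, and a difference between them was not tested. These matches are descriptions of letters, not of binding.

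The Cxcr2 ligands varied between libraries more than between days. Cxcl1 stood at 3.08, 1.41 and 13.1 CPM at D0 and at 3.19, 6.95 and 3.97 CPM at D14. Cxcl2 stood at 0.349, 0.958 and 2.39 CPM at D0 and at 0.985, 1.40 and 0.641 CPM at D14. Cxcl5, an epithelial ligand of the same receptor, stood at 3.14, 0.511 and 7.87 CPM at D0 and at 1.74, 1.85 and 1.73 CPM at D14. For all 3 the highest library was D0 replicate 3, and the D14 libraries lay within the D0 range. The log2 fold change of Cxcl5 was -1.11 (SE 0.77) and became -0.05 without D0 replicate 3, where that of Cxcl1 was 1.06 and that of Cxcl2 0.64. Cxcl3 failed the filter with at most 12 counts. In the 5-gene cluster of Cxcl5, Cxcl3, Cxcl15, Cxcl1 and Cxcl2 (chromosome 5, 90759360 to 90905938), all 4 tested genes were highest in D0 replicate 3. That library was the highest for 28.7% of all tested genes.

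Their receptor Cxcr2 stood at 12.6, 8.31 and 4.99 CPM at D0 and at 7.47, 19.9 and 8.97 CPM at D14. D14 replicate 2 was the highest library and D0 replicate 3, where the ligands were highest, the lowest. The log2 fold change was 0.49 (SE 0.46), and -0.07 without D14 replicate 2. The 12 neutrophil markers were also highest in D14 replicate 2, with a sum of 376 CPM against 196 to 315 CPM in the others, and their part in the Cxcr2 value was not tested.

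Cxcl15 was the most abundant member and made up 62.8% to 66.2% of all member counts in each library. It stood at 2012, 1777 and 2953 CPM at D0 and at 1978, 2202 and 1909 CPM at D14. D0 replicate 3 was the highest, and the other 5 libraries lay within 1777 to 2202 CPM (log2 fold change -0.15, SE 0.23, and 0.10 without that library). The alveolar epithelial marker sum was highest in the same library, at 47805 CPM. Per kilobase of exon, the ligand order by mean was Cxcl15 at 1005, Ccl6 at 139, Cxcl14 at 42.7, Cxcl12 at 33.0 and Ccl5 at 28.7 CPM per kb. The library ranges of Cxcl14 (33.5 to 51.5), Cxcl12 (17.7 to 48.4) and Ccl5 (21.0 to 38.1) CPM per kb overlapped. Such ranges do not compare the genes within each library, and the order of those neighbours was not tested. Cxcl14, a homeostatic epithelial and stromal chemokine, stood at 94.1, 78.7 and 76.3 CPM at D0 and at 89.2, 68.0 and 61.3 CPM at D14. Its ranges overlapped, and its log2 fold change was -0.19 (SE 0.18).

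The myeloid ligands Ccl6 and Ccl9 were set apart by D0 replicate 3. Ccl6, a Ccr1 ligand of macrophages, stood at 124, 187 and 633 CPM at D0 and at 203, 188 and 159 CPM at D14. The highest library was 3.11 times the next, and the log2 fold change of -0.78 (SE 0.55) became 0.24 without it. Ccl9, also a Ccr1 ligand, stood at 14.2, 26.9 and 95.8 CPM at D0 and at 29.9, 50.8 and 31.5 CPM at D14 (log2 fold change -0.29, SE 0.64, and 0.86 without D0 replicate 3). The 12 alveolar macrophage markers summed to 438, 580 and 1124 CPM at D0 and to 586, 534 and 597 CPM at D14. Car4, the most abundant of the 12, is also on the list of blood endothelial markers. Marco, one of them, stood at 35.7 CPM in D0 replicate 3 and at 0.833 to 2.36 CPM elsewhere. Of the 12 markers 3 had a positive and 9 a negative log2 fold change (median -0.46), and their part in Ccl6 and Ccl9 was not tested. Ccr1 stood at 11.9, 11.8 and 15.1 CPM at D0 and at 8.63, 20.7 and 12.5 CPM at D14. The D14 libraries spanned the D0 range (log2 fold change 0.11, SE 0.32).

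**Figure D4:**
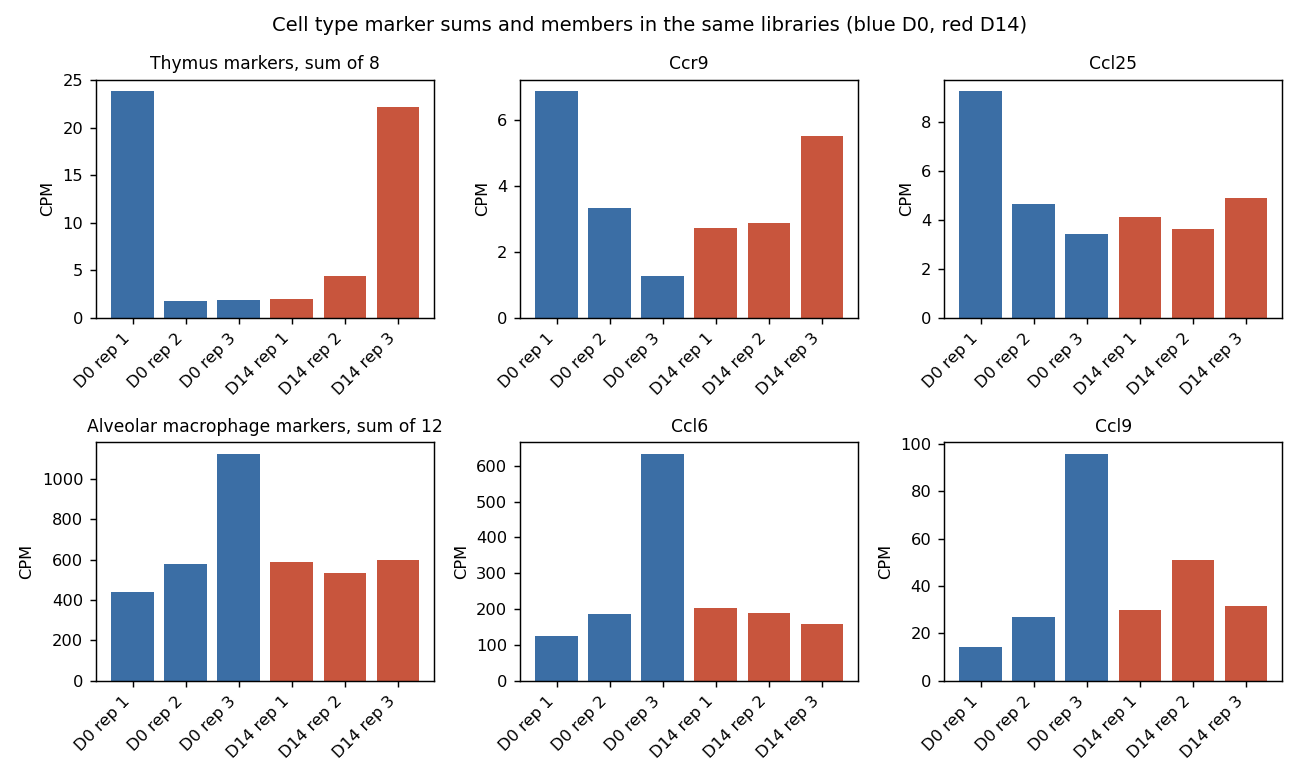
CPM (y axes, linear, from 0) of thymus and alveolar macrophage marker sums and of Ccr9, Ccl25, Ccl6 and Ccl9 in each library (blue D0, red D14). Thymus markers and Ccr9 are highest in D0 replicate 1 and D14 replicate 3, and alveolar macrophage markers, Ccl6 and Ccl9 are highest in D0 replicate 3.

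Monocyte-attracting ligands were low and spread widely at D14. Ccl2, the main Ccr2 ligand, stood at 1.16, 1.73 and 3.02 CPM at D0 and at 2.03, 4.53 and 0.128 CPM at D14. The Ccl2 value in D14 replicate 3 was 2 counts, under the 0.192 CPM that 3 counts correspond to in that library. Ccl7, which shares that receptor, stood at 0.349, 0.639 and 2.11 CPM at D0 and at 2.55, 5.36 and 0.385 CPM at D14. D14 replicate 2 was the highest library and D14 replicate 3 the lowest or next to it for both. Ccl7 had the largest positive log2 fold change of the ligands, 1.44, with an SE of 0.93 and an edgeR adjusted p of 0.510. Their cluster on chromosome 11 (82035571 to 82305690) also holds Ccl11, Ccl12, Ccl8 and Ccl1. Of its 5 tested genes 3 were highest in D0 replicate 3 and 2 in D14 replicate 2, against 28.7% and 14.1% of all tested genes. Ccr2, on inflammatory monocytes, stood at 18.0, 20.4 and 22.1 CPM at D0 and at 23.3, 20.8 and 13.4 CPM at D14. Its ranges overlapped (log2 fold change -0.07, SE 0.23). The summed Ccr2 ligands Ccl2, Ccl7, Ccl8 and Ccl12 stood at 3.20, 4.03 and 9.97 CPM at D0 and at 7.24, 12.6 and 1.15 CPM at D14.

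Ccl5, a T and NK cell chemokine, stood at 27.2, 30.9 and 24.9 CPM at D0 and at 36.6, 25.4 and 20.1 CPM at D14. The D14 libraries spanned the D0 range (log2 fold change -0.01, SE 0.23). Ccl3 and Ccl4, macrophage inflammatory proteins, were at 0.513 to 2.32 CPM in every library. Ccl3 was highest in D0 replicate 3 (log2 fold change -1.05, SE 0.54, edgeR adjusted p 0.446, and -0.45 without that library).

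The interferon-inducible Cxcr3 ligands did not separate the days. Cxcl9 stood at 0.233, 1.41 and 3.72 CPM at D0 and at 3.24, 1.66 and 1.79 CPM at D14. Cxcl10 stood at 1.57, 1.47 and 5.13 CPM at D0 and at 4.05, 4.08 and 1.47 CPM at D14. Both were highest in D0 replicate 3, and the log2 fold changes were 0.34 (SE 0.78) and 0.25 (SE 0.60). Without D0 replicate 3 they were 1.46 and 1.08, still short of the threshold, with a lowest edgeR adjusted p of 0.473 for Cxcl9 and 0.458 for Cxcl10 over the fits that left out 1 library. Cxcr3, on effector T cells, stood at 3.43, 2.43 and 1.62 CPM at D0 and at 1.45, 3.76 and 1.73 CPM at D14 (log2 fold change -0.11, SE 0.46).

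Cxcl16, the membrane-bound Cxcr6 ligand, stood at 62.8, 76.3 and 103 CPM at D0 and at 90.6, 78.8 and 67.5 CPM at D14, and the D14 libraries lay within the D0 range. The dendritic cell ligands of Ccr4 again had D0 replicate 3 on top. Ccl17 stood at 1.28, 1.53 and 11 CPM at D0 and at 5.04, 5.04 and 3.33 CPM at D14. Ccl22 stood at 4.42, 3.00 and 9.62 CPM at D0 and at 6.89, 5.36 and 4.55 CPM at D14. The log2 fold change was -0.03 (SE 0.21) for Cxcl16, -0.03 (SE 0.78) for Ccl17 and -0.02 (SE 0.43) for Ccl22. Without D0 replicate 3 these were 0.18, 1.67 and 0.59, with edgeR adjusted p of 0.682, 0.268 and 0.494. Ccl11 and Ccl24, the eosinophil-attracting eotaxins, ranged from 0.927 to 6.60 CPM and both had their highest library in D0 replicate 3, without which the log2 fold changes of -0.39 and -0.53 became 0.0090 and 0.30. Cxcl17, a mucosal chemokine, lay between 9.14 and 13.3 CPM in all libraries, and Ccl28, a mucosal Ccr10 ligand, between 0.814 and 4.36 CPM.

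Cx3cl1, fractalkine, a membrane-bound endothelial and epithelial ligand, stood at 49.8, 28.4 and 22.2 CPM at D0 and at 53.8, 54.3 and 7.05 CPM at D14. D14 replicate 3 was the lowest of all libraries and the other D14 libraries the highest (log2 fold change 0.20, SE 0.68). Without D14 replicate 3 its log2 fold change was 0.69. Cx3cr1, its receptor on nonclassical monocytes, stood at 8.55, 8.43 and 7.79 CPM at D0 and at 11.7, 13.3 and 9.42 CPM at D14. All D14 libraries lay above all D0 libraries (log2 fold change 0.47, SE 0.20), but the edgeR adjusted p was 0.390. The span of its gene model (chromosome 9, 119901616 to 120069879) overlaps Csrnp1, Gorasp1 and Xirp1 on the same strand, so its count may be uncertain. Of its 50-base stretches, 0.269% occur in other annotated transcripts. Of the overlapping genes, Csrnp1 stood at 12.8, 45.2 and 67.7 CPM at D0 and at 215, 144 and 163 CPM at D14. A part of Csrnp1 reads in the Cx3cr1 value was not tested. The 7 nonclassical monocyte markers summed to 1337, 950 and 675 CPM at D0 and to 1585, 1650 and 1757 CPM at D14. Ace was the most abundant of the 7 and weighs most in these sums. Of the markers 4 had a positive and 3 a negative log2 fold change (median 0.02), and their part in Cx3cr1 was not tested.

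Of the lymphoid tissue chemokines, Cxcl13 and Ccl19 varied several-fold within each day. Cxcl13, the B cell attractant, stood at 5.58, 11.5 and 63.1 CPM at D0 and at 3.88, 24.7 and 30.7 CPM at D14 (log2 fold change -0.43, SE 1.02, and 1.21 without D0 replicate 3). Ccl19, a Ccr7 ligand, stood at 1.34, 0.319 and 2.67 CPM at D0 and at 0.348, 2.74 and 0.256 CPM at D14. Ccl19 had the same 2 highest libraries, D14 replicate 2 and D0 replicate 3, as Glycam1, a product of high endothelial venules, which stood at 58.6 and 23.5 CPM there and at 0 to 13.5 CPM in the others. The 8 lymphoid stroma markers, Glycam1 among them, summed to 269, 301 and 428 CPM at D0 and to 179, 340 and 214 CPM at D14. Of the 7 that were tested 2 had a positive and 5 a negative log2 fold change, and their part in Ccl19 and Cxcl13 was not tested. Ccl21a, another Ccr7 ligand, stood at 20.8, 22.5 and 25.5 CPM at D0 and at 18.9, 26.0 and 14.8 CPM at D14 (log2 fold change -0.20, SE 0.23). Ccl21b stood at 5.87, 6.58 and 6.67 CPM at D0 and at 4.29, 5.23 and 3.08 CPM at D14. Its ranges did not overlap, with a log2 fold change of -0.60 (SE 0.26, edgeR adjusted p 0.398). Ccl27a, a skin and epithelial ligand of Ccr10, had ranges of 1.40 to 3.16 CPM at D0 and 0.985 to 1.28 CPM at D14 (log2 fold change -0.91, SE 0.40, edgeR adjusted p 0.405, and -0.51 without D0 replicate 3). Values of Ccl21 and Ccl27 genes are uncertain, since 71.6% of the 50-base stretches of Ccl21a, 100% of those of Ccl21b and 45% of those of Ccl27a occur in other annotated transcripts, as do 52% of those of Ccl19.

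Ccr7, which guides dendritic cells and T cells to lymphatics, stood at 26.1, 25.9 and 19.4 CPM at D0 and at 24.0, 31.6 and 25.2 CPM at D14 (log2 fold change 0.18, SE 0.19). Cxcr5, the Cxcl13 receptor of B cells, stood at 13.3, 9.39 and 11.9 CPM at D0 and at 6.43, 11.7 and 9.10 CPM at D14 (log2 fold change -0.34, SE 0.26). Both genes' ranges overlapped between the days. The 10 B cell markers summed to 313, 187 and 301 CPM at D0 and to 118, 158 and 175 CPM at D14. All 10 had a negative log2 fold change (median -0.74), and 0 were called. At an unadjusted edgeR p under 0.05, 7 of the 10 were lower and 0 higher, against 7.09% and 5.48% of all genes. Ranges did not overlap for 6 that were lower and 0 that were higher, against 10.7% and 10.9% of all genes. The part of the B cell markers in the Cxcr5 value was not tested.

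Ccr9, the thymic and gut homing receptor, was highest in D0 replicate 1 and D14 replicate 3, the libraries with the highest thymus marker sums. Its ligand Ccl25 stood out only in D0 replicate 1, and its D14 replicate 3 value was close to that of D0 replicate 2. Ccr9 stood at 6.86, 3.32 and 1.26 CPM at D0 and at 2.72, 2.87 and 5.51 CPM at D14. Ccl25, which thymic epithelium makes, stood at 9.24, 4.66 and 3.44 CPM at D0 and at 4.11, 3.63 and 4.87 CPM at D14. Thymus markers summed to 23.8, 1.79 and 1.90 CPM at D0 and to 2.03, 4.46 and 22.2 CPM at D14. Of the 8 markers 2 passed the low count filter. Rag1, needed for receptor gene rearrangement in developing lymphocytes, stood at 12.8 CPM in D0 replicate 1 and 12.9 CPM in D14 replicate 3 and at 0.256 to 2.74 CPM in the others. Foxn1, the defining gene of thymic epithelium, was at 3 counts or fewer in every library. The models of Ccr9 and Ccl25 overlap other genes with up to 2062 and 1472 counts a library, and the sources used here do not say whether counting used strand. The same limit holds for Cxcr5 (Bcl9l), Cxcr6 (Fyco1), Ccl27a (Il11ra1), Ackr4 (Acad11), Cxcl16 (Zmynd15), Cxcl10 (Art3) and Ccr10 (Cntnap1).

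The receptors centred near the other genes. Of 16 tested receptors 8 had a positive and 8 a negative log2 fold change (median 0.04), and the median was -0.03 when no scaling factors were used. D0 replicate 3 was the lowest library for 13 of the 19 tested receptors and atypical receptors, and the highest for 2. Of all tested genes, 29.8% were lowest and 28.7% highest in it. Per kilobase of exon, the receptor order by mean was Cxcr4 at 29.0, Ackr3 at 20.7, Ccr7 at 12.8, Ccr1 at 4.74 and Ackr2 at 4.25 CPM per kb. The library ranges of Cxcr4 (21.8 to 35.2) and Ackr3 (12 to 30.1) CPM per kb overlapped, as did those of Ackr3 and Ccr7 (9.80 to 16) and of Ccr1 (3.05 to 7.29) and Ackr2 (2.07 to 6.37). Ccr7 and Ccr1 did not overlap. By day, Cxcr4 was at 30.6 ± 7.70 and Ackr3 at 13.2 ± 1.3 CPM per kb at D0 (SD, n = 3), and at D14 Cxcr4 was at 27.4 ± 0.796 and Ackr3 at 28.2 ± 2.38 CPM per kb, so the order of this pair at D14 was within the spread. Of the remaining receptors, Ccr4 had the largest positive log2 fold change, 1.05 (SE 0.58, edgeR adjusted p 0.462), at 0.211 to 1.51 CPM (3 to 26 counts). Cxcr1 had the largest negative one, -0.76 (SE 0.70), with D0 replicate 3 highest at 5.48 CPM and 0.38 without it. Xcr1, on cross-presenting dendritic cells, Cxcr6, Ccr6 and Ccr10 had log2 fold changes between -0.33 and 0.19.

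Signalling genes downstream of the receptors had log2 fold changes of both signs. Of 36 genes on the list of receptor signalling, all tested, 19 had a positive and 17 a negative log2 fold change (median 0.05), and 1 was called, against 0.0339% of all genes. That gene was Crk, an adaptor between phosphotyrosine and Rac or Rap activation, which fell from 181, 160 and 148 CPM at D0 to 55.1, 60.6 and 58.5 CPM at D14 (log2 fold change -1.49, SE 0.14, edgeR adjusted p 0.029). With any 1 of the D14 libraries left out, 0 genes of the whole table were called. The unadjusted p was under 0.05 also for Rgs2 (log2 fold change 0.58), Elmo1 (0.80) and Gng2 (0.67) above 0 and for Vav1 (-0.64) and Pik3cg (-0.60) below 0, and none of these passed the adjusted threshold. That made 3 of 36 higher and, with Crk, 3 lower, against 5.48% and 7.09% of all genes. Vav1, a Rac exchange factor of blood cells, stood at 24.3, 24.9 and 24.9 CPM at D0 and at 17.3, 16.5 and 13.9 CPM at D14.

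Of 14 tested NF-κB feedback genes and cytokine inducers, 9 had a positive and 5 a negative log2 fold change, and 0 were called. At an unadjusted p under 0.05, 2 of the 14 were higher and 2 lower, against 5.48% and 7.09% of all genes. Ranges did not overlap for 4 that were higher and 3 that were lower, against 10.9% and 10.7% of all genes. Tnfaip3 (A20), the NF-κB inhibitor, stood at 34.4, 32.1 and 36.4 CPM at D0 and at 57.5, 59.2 and 56.1 CPM at D14. Its ranges were separate (log2 fold change 0.75, SE 0.13, edgeR adjusted p 0.199). The ranges of Cxcl1, Cxcl2 and Cxcl10, whose promoters hold κB letters, overlapped, and a link of these genes to Tnfaip3 was not tested. Of 10 tested genes that cut or modify chemokines, 8 had a positive and 2 a negative log2 fold change, and 0 had an unadjusted p under 0.05. For Dpp4, which trims Cxcl12, the log2 fold change was 0.30 (SE 0.16). Of 9 further chemokine and chemerin genes that the nomenclature leaves out, 6 were tested. Ppbp, a platelet chemokine for Cxcr2, stood at 10.2, 8.11 and 10.9 CPM at D0 and at 12, 15.0 and 22.6 CPM at D14. Its ranges did not overlap (log2 fold change 0.76, SE 0.27, edgeR adjusted p 0.364). For Pf4, the other platelet chemokine, the log2 fold change was -0.43 (SE 0.26). The 5 platelet and megakaryocyte markers had positive values (median 0.38), with 0 at an unadjusted p under 0.05. They summed to 28.0, 14.7 and 11.7 CPM at D0 and to 22.7, 21.7 and 26.8 CPM at D14, within the D0 range.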

How the data were processed

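Bulk RNA-seq of lungs covered 3 libraries at D0 and 3 at D14. The authors deposited unscaled estimated counts for each gene symbol. The submitters' processing notes name CASAVA 1.8, StringTie 1.3.4b, HISAT2 2.1.0 and edgeR, and the build GRCm38. How reads were counted, and whether by strand, is not given in the sources used here. Counts were rounded, and 4 of 29757 lines (empty or displaced) were left out. Another 50 lines repeated a symbol and were kept apart.

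Genes were tested with edgeR 4.0.16 under R 4.3.3 (TMM factors, default low count filter, robust quasi-likelihood, two-sided) over all 17686 tested genes, with Benjamini-Hochberg adjustment and a threshold of 0.05. An exact permutation test of 3 against 3 libraries cannot go below 0.1. Levels are CPM with TMM factors. Gene positions and exon lengths come from GENCODE M21, in which 60 of 61 member symbols were found, and promoters from RefSeq.

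Members and gene lists were chosen with earlier results of these data known. Every library is given for members at an unadjusted p under 0.05, the 5 ligands and 5 receptors highest per kb, a fixed list of well-known pairs, and members with 1 library over 3 times the next. Others were added after their values were seen (Ccl7, Ccl9, Ccl17, Ccl21b, Ccl22, Ccl25, Cxcl16, Ccr9 and Ackr4). Alternatives were DESeq2 1.42.0, limma-voom (limma 3.58.1), RLE or no scaling factors, other filters, no robust estimation, a replicate block, leaving out each library, and, chosen after seeing the data, summing repeated symbols. In a test on simulated data for this comparison with 17686 genes, of which 200 were changed, 19% of genes changed by log2 1 and 76% of those changed by log2 2 were recovered, with 11 false of 106 calls. The values of 1 member are not reported here, though the counts over the family include it.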

Additional observations from a re-analysis of the deposited data

How the results depend on the processing

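RLE factors, no scaling factors, at least 1 CPM in 3 libraries, no robust estimation and summed repeated symbols (chosen after seeing the data) changed neither the direction nor the call of any named member fitted. With DESeq2 and with no low count filter 1 member, Ackr3, passed the threshold as higher, and Ccl5 turned to 0.0071 and 0.0015 on the log2 scale. With limma-voom the log2 fold change was -0.20 for Cx3cl1, 0.23 for Cxcl1, -0.65 for Ccl2 and 0.085 for Cxcl2. At an unadjusted p under 0.05, 1 member was higher with limma-voom, no scaling factors or the replicate block, and 3 without the low count filter. Lower members numbered 1 with limma-voom, 2 with no scaling factors and 1 with at least 1 CPM in 3 libraries. The cause was not tested. Over all genes edgeR called 6, DESeq2 247 and edgeR without the filter 26.

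Same-numbered libraries of the days had correlations of their deviations of -0.10 to 0.12, and those of different numbers -0.17 to 0.18. With 3 libraries a day these values cannot decide whether the numbers pair the libraries. With the replicate block 0 genes were called, Ackr3 had a log2 fold change of 1.10 (adjusted p 0.297), and Cx3cl1 was -0.16, Cxcl1 0.13 and Ccl2 -0.16.

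Leaving out each library in turn gave 0 members past the threshold in either direction, 1 to 4 higher and 0 to 2 lower at an unadjusted p under 0.05. The median log2 fold change ranged from -0.53 to 0.16 for ligands, from -0.10 to 0.26 for receptors and from 0.23 to 1.06 for atypical receptors. For single members that changed sign it ranged from -0.29 to 0.10 (Cxcl15), -0.12 to 0.63 (Cxcl12), -1.15 to 0.24 (Ccl6), -0.13 to 0.69 (Cx3cl1), -0.27 to 0.17 (Ccl5), -0.91 to 1.21 (Cxcl13), -0.77 to 1.06 (Cxcl1), -0.050 to 1.08 (Cxcl10), -0.84 to 0.74 (Ccl2), -0.18 to 1.46 (Cxcl9), -2.21 to 0.41 (Ccl19), -0.71 to 0.64 (Cxcl2), -0.23 to 0.13 (Ccr2), -0.29 to 0.37 (Ccr1), -0.068 to 0.87 (Cxcr2) and -0.65 to 0.20 (Cxcr3). D0 replicate 3 turned the sign of 9 of the 25 named members when left out, more than any other library. The median level was 4.99 CPM over the 51 tested members, and the 14 others had at most 47 counts in any library.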
